A study of Mus musculus with 24 samples.

Results

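The genes described here are 10 that write, read, remove or regulate DNA methylation: Tet1, Tet2, Tet3, Dnmt1, Dnmt3a, Dnmt3b, Dnmt3l, Uhrf1, Tdg and Ogt. They were chosen by name and found by Ensembl gene ID among the 53900 features of a TET2 crosslinking and immunoprecipitation (CLIP) table and of an RNA immunoprecipitation (RIP) table for 5-hydroxymethylcytosine (hm5C). All 10 were present in both tables. The question was how much of each gene's RNA was recovered with tagged TET2 and with an hm5C antibody, relative to the input RNA of the same kind of sample, in mouse embryonic stem cells.

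The study had 24 libraries, of which 8 CLIP and 4 RIP libraries are used here; the 12 small RNA libraries were not used for these genes. TET2 CLIP and input were each sequenced with 2 replicates from clone 65 and 2 from clone 75, independent clones of the E14 embryonic stem cell line with the strain label Tet2HA-His. Both CLIP groups of both clones, inputs included, received 4-thiouridine (4SU, a photoreactive uridine analogue) at 500 µM for 4 hours and UVB at 400 mJ/cm2. hm5C RIP and RIP input, 2 replicates each, came from untreated cells of strain B6;129. All cells were kept on gelatin with leukemia inhibitory factor, PD0325901 (1 µM, a MEK inhibitor) and CHIR99021 (3 µM, a GSK3 inhibitor). The design text calls the replicates biological. Neither an untagged control for CLIP nor a control antibody for RIP was analysed here, so each change is a difference from input only, and each clone is 1 line.

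As background, DNA methyltransferases place a methyl group on cytosine in CpG sites. DNMT1 copies the mark to the new strand at replication, guided by UHRF1, which recognises hemimethylated DNA. DNMT3A and DNMT3B set new marks, and DNMT3L, which has no catalytic activity of its own, stimulates them. The TET dioxygenases TET1, TET2 and TET3 oxidise 5-methylcytosine to 5-hydroxymethylcytosine and on to 5-formylcytosine and 5-carboxylcytosine. TDG is the glycosylase that excises those last products. OGT, the enzyme that adds O-linked N-acetylglucosamine to proteins, binds TET proteins. TET1 and TET2 are the TET enzymes best known from naive mouse embryonic stem cells, and TET3 is best known from the zygote.

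TET2 CLIP libraries held 221060 to 223413 counts in clone 65 and 254996 to 453944 in clone 75, while CLIP inputs held 2960450 to 4729463 in clone 65 and 913002 to 2277721 in clone 75. The 10 genes took 0.160% to 0.162% of counts in TET2 CLIP and 0.229% to 0.247% in input of clone 65, and 0.179% to 0.192% in TET2 CLIP and 0.169% to 0.180% in input of clone 75. hm5C RIP libraries held 1564014 to 2100187 counts and RIP inputs 4641963 to 4889943. All 15 pluripotency markers checked were counted in the CLIP inputs, with a summed level of 3026 to 3107 CPM in clone 65 and 2478 to 2623 CPM in clone 75. CPM is the usual per-library scaling of counts by depth, here with a trimmed-mean (TMM) factor on each library size. In such bulk RNA, fewer cells of a type and less RNA per cell cannot be told apart.

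The 10 genes lie on 8 chromosomes, in the RefSeq annotation of GRCm38.p6, the assembly of mm10. Tet2 (ENSMUSG00000040943) spans chr3:133463677-133545136, Tet3 (ENSMUSG00000034832) chr6:83362373-83457208, Uhrf1 (ENSMUSG00000001228) chr17:56303337-56323486 and Ogt (ENSMUSG00000034160) chrX:101640011-101684351. The counts are per gene and do not say which exon, intron or UTR a read came from. No other RefSeq gene overlaps Tet2, Dnmt3b, Uhrf1 or Ogt. The span of Tet3 also holds the microRNA gene Mir6374 and the long non-coding RNA gene B230319C09Rik, that of Tet1 holds Gm51805, that of Dnmt1 holds Mir7081 and that of Dnmt3a holds Dnmt3aos and Gm31623. Dnmt3l overlaps Aire and Tdg overlaps Glt8d2. The use of strand in counting is not given in the sources used here, so reads of overlapping genes may be shared. Levels were compared between libraries for 1 gene at a time and not between genes, because counts were not divided by transcript length.

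**Figure D1:**
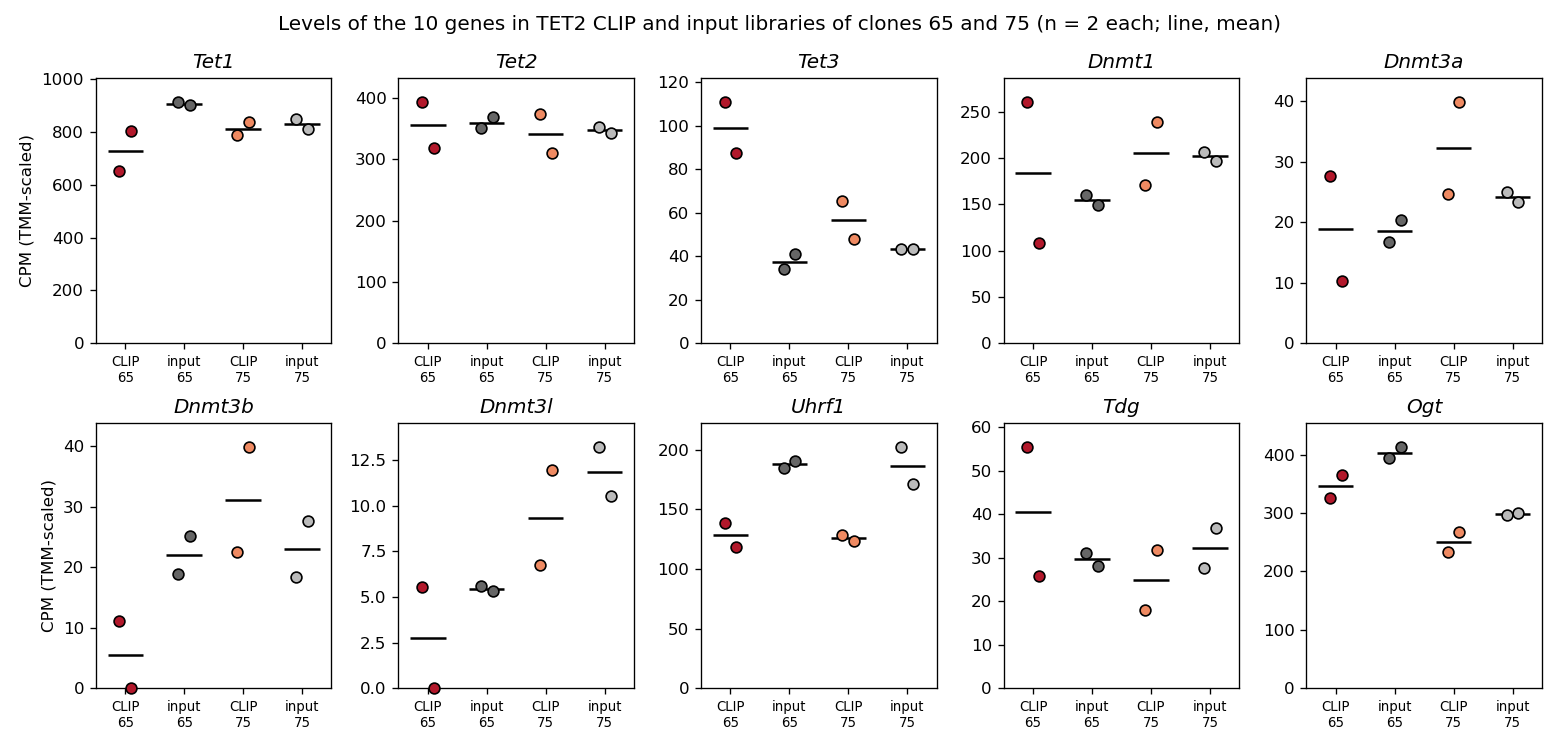
Level of each of the 10 genes (y axis, TMM-scaled CPM, a separate linear scale from 0 per gene) in TET2 CLIP and input libraries of clone 65 and clone 75 (x axis). Points are libraries and lines are means of n = 2; Tet3 lies above and Uhrf1 below input in both clones, and Tet2 overlaps input in both.

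Of the TET genes, Tet3 RNA rose in TET2 CLIP over input, while Tet1, and Tet2, the gene of the protein that was pulled down, did not pass the test. Tet3 was 1.87-fold higher over both clones. In clone 65 the TET2 CLIP libraries measured 111 and 87.4 CPM of Tet3, from 20 and 17 counts, against 34.2 and 41.0 CPM in input. In clone 75 they measured 65.3 and 47.8 CPM, from 29 and 12 counts, against 43.5 and 43.5 CPM in input. All 4 TET2 CLIP libraries thus lay above all 4 inputs, with clone 65 highest; 8.58% of tested features showed the same separation. The log2 change over both clones was 0.90 (SE 0.22, 95% interval 0.45 to 1.35, edgeR adjusted p = 0.00392), larger than that of 89.4% of the 10334 features tested.

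By clone, the Tet3 change was 1.37 in clone 65 on the log2 scale (SE 0.32, edgeR adjusted p = 0.00308), a 2.58-fold rise. In clone 75 it was 0.43 (SE 0.31, 95% interval -0.20 to 1.06, edgeR adjusted p = 0.446). The difference between these changes, clone 65 minus clone 75, was 0.94 (95% interval 0.07 to 1.80). It had an unadjusted p of 0.0349 and an edgeR adjusted p of 0.280, so the clones were not shown to differ. The call over both clones rests on few counts. Leaving out TET2 CLIP replicate 1 of clone 65 ended it (log2 change 0.66, median of all features -0.21). The call also ended without TET2 CLIP replicate 1 of clone 75 (0.63, median -0.17, against -0.03 with all libraries). With no count filter it was also lost (0.54, edgeR adjusted p = 0.173), where the median of all features was -0.66 and Tet3 lay 1.21 above it, against 0.93 above it with the filter. The clone 65 call ended in the fit without its TET2 CLIP replicate 1 (1.02, median of all features -0.24). It also ended with no count filter (0.90, edgeR adjusted p = 0.0999, median -0.95). In the main fit the clone 65 median was -0.04.

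Tet2 RNA was measured at 393 and 319 CPM in TET2 CLIP of clone 65, against 351 and 369 CPM in its input. Clone 75 gave 374 and 311 CPM in TET2 CLIP, against 353 and 342 CPM in input. In each clone, 1 TET2 CLIP library lay above both inputs and the other below them. The log2 change over both clones was -0.01 (SE 0.12, 95% interval -0.26 to 0.24, edgeR adjusted p = 0.968). It was -0.02 in clone 65 (95% interval -0.38 to 0.34) and -0.0024 in clone 75 (95% interval -0.34 to 0.33). Of all tested features, 50.9% had a change at or below that of Tet2.

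Tet1 was measured at 653 and 802 CPM in TET2 CLIP of clone 65, against 910 and 902 CPM in input. Both TET2 CLIP libraries of that clone were below both inputs, a separation that 30.7% of tested features also showed. In clone 75, TET2 CLIP gave 785.5 and 836 CPM and input 846.5 and 809.6 CPM, and the groups overlapped. The log2 change was -0.17 over both clones (SE 0.12, edgeR adjusted p = 0.389), -0.31 in clone 65 (edgeR adjusted p = 0.296) and -0.03 in clone 75 (edgeR adjusted p = 0.947). Leaving out TET2 CLIP replicate 2 of clone 65, Tet1 changed by -0.43 over both clones and by -0.70 in clone 65. The medians of all features were then -0.23 and -0.32, against -0.03 and -0.04 with all libraries.

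The make-up of the TET counts within a library needs no scaling between libraries. Tet3 took 9.57% (20 of 209 counts, exact binomial 95% interval 5.94% to 14.4%) and 7.23% (17 of 235, 4.27% to 11.3%) of the counts of the 3 TET genes in TET2 CLIP of clone 65. In the inputs of clone 65 it took 2.64% (2.17% to 3.17%) and 3.13% (2.74% to 3.56%). The intervals of TET2 CLIP and input of clone 65 did not overlap. In clone 75, Tet3 took 5.33% (3.60% to 7.57%) and 4.00% (2.08% to 6.88%) in TET2 CLIP, against 3.50% (2.42% to 4.88%) and 3.64% (2.94% to 4.45%) in input, with overlapping intervals. Tet2 took 34.0% and 26.4% in TET2 CLIP of clone 65, against 27.1% and 28.1% in input, and 30.5% and 26.0% in TET2 CLIP of clone 75, against 28.4% and 28.6% in input. The intervals cover counting error only, and replicates of the CLIP groups varied by more than that (chi-square divided by its degrees of freedom, 1.66 to 2.74).

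**Figure D2:**
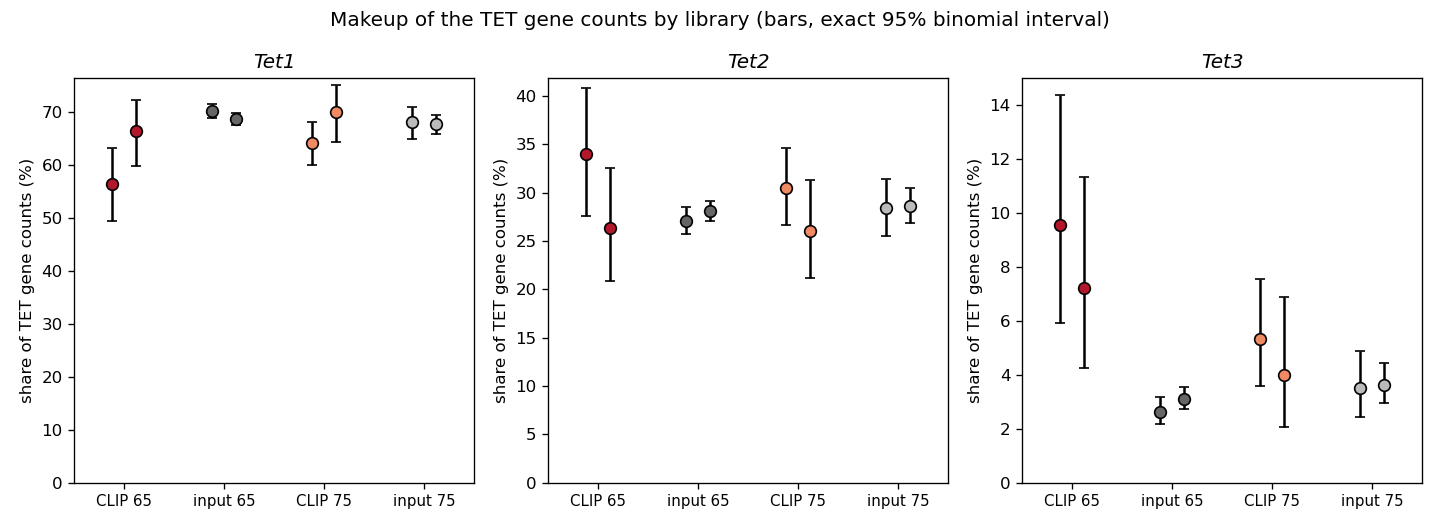
Share of each library's summed TET counts taken by Tet1, Tet2 and Tet3 (1 panel each, y axis in percent from 0), in TET2 CLIP and input of each clone (x axis). Points are libraries and bars are exact binomial 95% intervals for counting error; for Tet3, both TET2 CLIP libraries of clone 65, at 9.57% and 7.23%, lie above inputs at 2.64% and 3.13%.

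Uhrf1, whose product guides maintenance methylation, was the member that fell in TET2 CLIP, to 0.69 of its input level over both clones. TET2 CLIP measured 138 and 118 CPM in clone 65, against 185 and 191 CPM in input, and 128 and 123 CPM in clone 75, against 202 and 171 CPM in input. All 4 TET2 CLIP libraries lay below all 4 inputs, as did 7.56% of tested features. The log2 change was -0.54 (SE 0.15, 95% interval -0.84 to -0.24, edgeR adjusted p = 0.00948). In the 8 fits that left out 1 library, the log2 change of Uhrf1 was -0.75 to -0.58. The median of all features was -0.23 to -0.11 in those without a TET2 CLIP library, against -0.03 with all libraries. Single clones gave -0.55 in clone 65 (SE 0.22, edgeR adjusted p = 0.122) and -0.53 in clone 75 (SE 0.19, edgeR adjusted p = 0.0787), neither past the threshold. The clone difference was -0.02 (95% interval -0.65 to 0.60).

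Dnmt1, the maintenance methyltransferase, was measured at 259.9 and 108 CPM in TET2 CLIP of clone 65, against 160.3 and 149 CPM in input. In clone 75 it was measured at 171 and 239 CPM in TET2 CLIP, against 207 and 196.5 CPM in input. The TET2 CLIP replicates stood on either side of their inputs in both clones. The log2 change over both clones was 0.11 (SE 0.16, 95% interval -0.22 to 0.43, edgeR adjusted p = 0.724).

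The de novo methyltransferase genes gave few counts in TET2 CLIP, and none of them passed the test. Dnmt3a was measured at 27.65 and 10.3 CPM in TET2 CLIP of clone 65, from 5 and 2 counts, against 16.8 and 20.3 CPM in input. In clone 75 it was measured at 24.8 and 39.8 CPM, from 11 and 10 counts, against 25.05 and 23.4 CPM in input. Its groups overlapped in both clones, and the change over both was 0.16 (log2, SE 0.38, edgeR adjusted p = 0.832).

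Dnmt3b differed most between the clones by size of change. TET2 CLIP of clone 65 held 2 and 0 counts of it, 11.1 and 0 CPM, against 18.95 and 25.3 CPM in input from 61 and 138 counts. TET2 CLIP of clone 75 held 10 counts in each library, 22.5 and 39.8 CPM, against 18.5 and 27.7 CPM in input. Clone 65 was thus below input without overlap, like 30.7% of features, while clone 75 overlapped its input. Summed over libraries and set against library size, the TET2 CLIP to input ratio was 0.233 in clone 65 (exact 95% interval 0.0280 to 0.851) and 1.14 in clone 75 (0.657 to 1.89), for counting error alone. The fitted log2 change was -2.07 in clone 65 (edgeR adjusted p = 0.182) and 0.21 in clone 75 (edgeR adjusted p = 0.851), and depends on the prior count where a library holds 0. Their difference, -2.28, had an unadjusted p of 0.0431 and an edgeR adjusted p of 0.305. In TET2 CLIP of clone 65, 3 counts correspond to 15.4 and 16.6 CPM, close to the input level. The lower level there thus rests on very few counts, although the interval for counting error alone lies below an equal level.

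Dnmt3l did not pass the filter on low counts. It had 1 and 0 counts in TET2 CLIP of clone 65, against 18 and 29 in input, and 3 and 3 in TET2 CLIP of clone 75, against 10 and 22 in input. The ratio of TET2 CLIP to input was 0.492 in clone 65 (exact 95% interval 0.0122 to 2.88) and 0.768 in clone 75 (0.263 to 1.86). Both intervals, for counting error alone, include a ratio of 1, so neither a rise nor a fall was detectable at this depth.

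Ogt lay a little below input in both clones without passing the test. It was measured at 326 and 365 CPM in TET2 CLIP of clone 65, against 395 and 412 CPM in input, and at 234 and 267 CPM in TET2 CLIP of clone 75, against 297 and 301 CPM in input. Both TET2 CLIP libraries of each clone were below both inputs of that clone, which 30.7% of tested features showed in clone 65 and 23.9% in clone 75. Its log2 change was -0.25 over both clones (SE 0.12, 95% interval -0.49 to 0.0009, edgeR adjusted p = 0.187). Leaving out 1 library gave log2 changes of -0.47 to -0.27 for Ogt over 8 fits. Without a TET2 CLIP library the median of all features was -0.23 to -0.11, against -0.03 with all libraries.

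Tdg, the glycosylase, gave 10 and 5 counts in TET2 CLIP of clone 65, or 55.3 and 25.7 CPM, against 31.1 and 28.2 CPM in input. TET2 CLIP of clone 75 gave 8 and 8 counts, or 18.0 and 31.9 CPM, against 27.7 and 36.8 CPM in input. The groups overlapped in both clones. The change over both was -0.06 (log2, SE 0.32, 95% interval -0.71 to 0.59, edgeR adjusted p = 0.934), with 0.44 in clone 65 and -0.56 in clone 75.

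**Figure D3:**
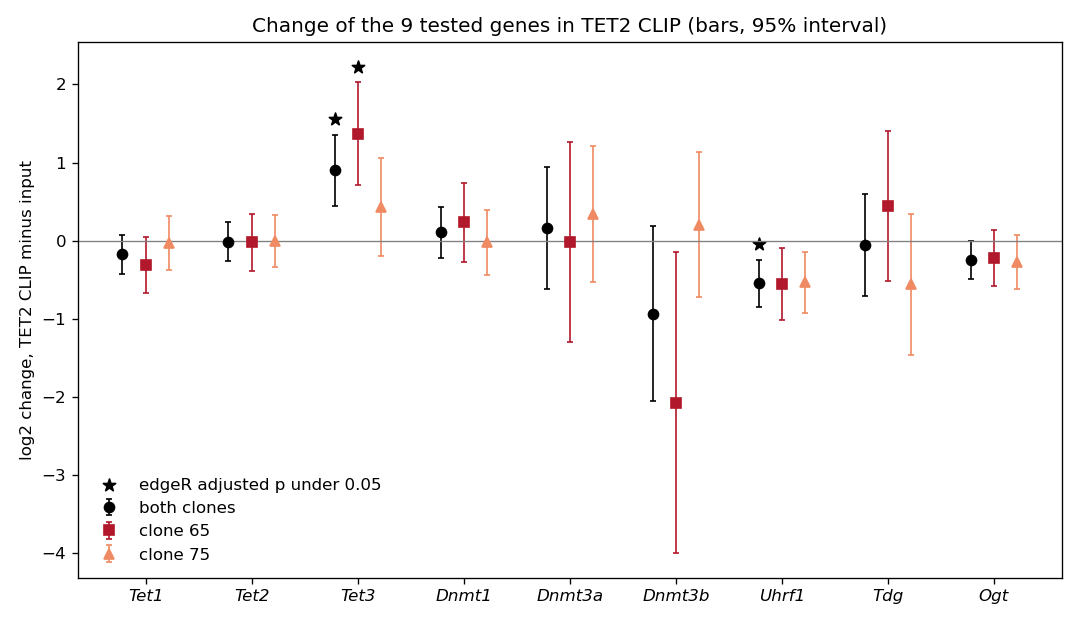
Log2 change in TET2 CLIP over input (y axis) of the 9 tested genes (x axis), for both clones (circles), clone 65 (squares) and clone 75 (triangles). Bars are 95% intervals of the edgeR estimates and stars mark an adjusted p under 0.05; over both clones the interval of Tet3 (0.45 to 1.35) lies above 0 and that of Uhrf1 (-0.84 to -0.24) below 0.

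In all, 9 of the 10 genes passed the filter, and over both clones 1 was called higher and 1 lower at an adjusted p under 0.05. Among all 10334 tested features, 14.8% were called, 8.99% higher and 5.83% lower. Their median log2 change was -0.03, against -0.06 for the 9 genes. In clone 65, 1 of the 9 was called higher and 0 lower, against 11.1% of all features (8.21% higher, 2.87% lower). In clone 75, 0 of 9 were called by edgeR and by DESeq2, against 10.2% of all features by edgeR (6.22% higher, 3.93% lower); 1 gene, Uhrf1, had an unadjusted p under 0.05. The test of the clone difference called 0 of 9 by edgeR, against 2.54% of all features (2.22% higher, 0.329% lower), and 0 by DESeq2; 2 genes, Tet3 and Dnmt3b, had an unadjusted p under 0.05.

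Before immunoprecipitation, the inputs of the clones differed by the test for 1 of the 9 genes. This was Ogt, with 395 and 412 CPM in clone 65 and 297 and 301 CPM in clone 75. The clone 65 libraries were above those of clone 75, a separation shown upward by 25.9% of features. The log2 difference, clone 65 minus clone 75, was 0.43 (SE 0.14, 95% interval 0.16 to 0.71, edgeR adjusted p = 0.0481), and 6.9% of all features were called (1.9% higher, 5% lower). Leaving out any 1 of the 4 inputs ended the call (log2 difference 0.40 to 0.47 over all 8 fits without 1 library, highest edgeR adjusted p 0.911). Dnmt1 was lower in clone 65, at 160.3 and 149 CPM, against 207 and 196.5 CPM in clone 75, without passing the test (-0.38, SE 0.15, edgeR adjusted p = 0.134). Tet2 differed by 0.05 (95% interval -0.23 to 0.34) and Uhrf1 by 0.04 (-0.21 to 0.29). Dnmt3l, which was not tested, was at 5.59 and 5.31 CPM in clone 65, from 18 and 29 counts. In clone 75 it was at 13.2 and 10.5 CPM, from 10 and 22 counts. Of tested features, 28.4% were lower in clone 65 without overlap, but Dnmt3l did not pass that filter.

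Of the 15 pluripotency markers, 3 also differed between the inputs: Klf2 by 0.81, Tdgf1 by 0.67 and Dppa5a by 0.61 (log2, clone 65 minus clone 75, edgeR adjusted p = 0.000431, 0.000785 and 0.00963), against 1.9% of all features called higher. DESeq2 did not call Dppa5a (0.64, adjusted p = 0.0982). The endoderm marker Col4a2 differed by -0.88 (edgeR adjusted p = 0.0278), which DESeq2 did not call (-0.86, adjusted p = 0.112). Leaving out single input libraries ended each of these 4 calls, as for Ogt. Summed over 9 extraembryonic endoderm markers, inputs measured 274.9 to 298 CPM in clone 65 and 303 to 316.5 CPM in clone 75. Without Col4a2 these sums overlapped, at 258.1 to 276.4 CPM in clone 65 and 272.9 to 279.7 CPM in clone 75. The 8 fibroblast markers summed to 1814 to 1930 CPM in clone 65 and 1400 to 1404 CPM in clone 75. Only 2 of these 8 were tested. Fn1, which made up most of both sums, differed by 0.44 (unadjusted p 0.0116, edgeR adjusted p = 0.115). The other differed by -0.28, the opposite way, and was not called. DESeq2 called 1 of the 2 higher. The part of such markers in the Ogt difference was not tested.

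Of 13 tested genes that maintain or guide DNA methylation, 1 rose and 2 fell in TET2 CLIP over both clones, with a median log2 change of -0.13. Among all tested features, 8.99% were called higher and 5.83% lower, and the median was -0.03. Trim28, the corepressor that KRAB zinc finger proteins recruit, fell to 226 to 265.5 CPM in TET2 CLIP of clone 65, against 489 to 509.6 CPM in input, and to 275 to 299 CPM in TET2 CLIP of clone 75, against 440.4 to 469 CPM in input (log2 change -0.85, edgeR adjusted p = 5.27e-06). Setdb1, a histone H3 lysine methyltransferase that acts with TRIM28, fell by 0.66 on the log2 scale (edgeR adjusted p = 0.00579). Both stayed past the threshold in the 8 fits without 1 library.

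Hells, a chromatin remodeller needed for DNA methylation, rose by 0.58 (log2, edgeR adjusted p = 0.00442). It was measured at 194 to 236.5 CPM in TET2 CLIP of clone 65, against 117 to 132 CPM in input, and at 135 to 191 CPM in TET2 CLIP of clone 75, against 117 to 137 CPM in input. The Hells call ended on leaving out replicate 1 of the clone 65 input (0.50, median of all features -0.02). It also ended without TET2 CLIP replicate 2 of clone 65 (0.33, median -0.23) or TET2 CLIP replicate 1 of clone 75 (0.30, median -0.17). With no count filter the call was lost too (0.23, edgeR adjusted p = 0.582), where the median was -0.66. In the main fit the median was -0.03.

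Over both clones, neither edgeR nor DESeq2 called any of 12 tested TET cofactors and partners, 10 base excision repair genes, 6 methyl-CpG readers, 9 genes of the methionine cycle or 7 RNA m5C writers and readers, while 14.8% of all features were called by edgeR. At an unadjusted p under 0.05, edgeR counted 1 higher and 1 lower, 0 and 0, 0 and 1, 0 and 3, and 1 higher and 1 lower in these lists, in that order. The medians were -0.15, -0.18, 0.13, -0.08 and -0.19 (log2). In clone 75 alone, Sinhcaf, a subunit of the SIN3A corepressor complex, rose by 1.51 (edgeR adjusted p = 0.0301) to 35.8 and 54.0 CPM in TET2 CLIP, against 11 and 30.3 CPM in input. DESeq2 did not call Sinhcaf (1.19, adjusted p = 0.303), and leaving out 1 library ended the call in 4 of 8 fits (0.61 to 2.02).

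In the inputs, edgeR called 1 of 12 tested TET cofactors and partners, 2 of 10 repair genes, 1 of 13 maintenance genes and none of 6 readers, 9 methionine cycle genes or 7 RNA m5C genes, against 6.9% of all features. Differences are log2, clone 65 minus clone 75. Qser1, whose product protects CpG islands from DNMT3 enzymes with TET1, differed by 0.63 (edgeR adjusted p = 0.0258). The repair genes Neil2, a glycosylase, and Xrcc1, a scaffold protein, differed by 1.43 (edgeR adjusted p = 0.00102) and -0.68 (adjusted p = 0.000520). Nsd2, a histone H3 lysine methyltransferase, differed by -0.56 (edgeR adjusted p = 0.0168). Leaving out either clone 65 input, or replicate 2 of the clone 75 input, ended each of these 4 calls. DESeq2 called neither Qser1 (adjusted p = 0.370) nor Nsd2 (adjusted p = 0.320). With library size alone, where the median of all features was 0.34, Xrcc1 (-0.32) and Nsd2 (-0.20) did not pass.

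The features whose levels followed those of a member most closely over the 8 CLIP libraries were not other members. For Tet3 they were the replication-dependent histone gene Hist1h3g (Pearson r of log2(CPM + 1) 0.99), Gm22980 (0.98) and Gm23143 (0.98). For Uhrf1 they were Ganab (0.98), Mrto4 (0.98) and Rps24 (0.98), and for Tet2 Nap1l1 (0.97), Rpl15 (0.97) and Ctsc (0.96). The closest member was Tdg for Tet3 (0.26), Tet1 for Uhrf1 (0.51) and Uhrf1 for Tet2 (0.32). These are the highest of 10334 features over 8 libraries that share depth and recovery step, and serve as descriptions only.

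In the hm5C RIP libraries the 10 genes were close to the limit of counting. They held 21 and 74 counts together in hm5C RIP, against 67 and 96 in input, which is 0.00134% to 0.00352% of counts in hm5C RIP and 0.00144% to 0.00196% in input. RIP libraries were made with a small RNA kit. The gene Acsl6 alone took 55.2% and 60.6% of hm5C RIP counts, against 0.255% and 0.167% of input counts. Only Tet1, Tet2 and Uhrf1 passed the count filter, among 2081 features.

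Tet1 had 4 and 24 counts in hm5C RIP, against 20 and 18 in input, or 2.62 and 9.95 CPM against 4.84 and 3.83 CPM. Tet2 had 3 and 15 counts in hm5C RIP, against 6 and 16 in input, or 1.97 and 6.22 CPM against 1.45 and 3.40 CPM. For both genes the replicates of hm5C RIP were further apart than those of input, and the groups overlapped. Uhrf1 had 9 and 12 counts, or 5.89 and 4.98 CPM, in hm5C RIP, against 11 and 23 counts, or 2.67 and 4.89 CPM, in input. Both hm5C RIP libraries of Uhrf1 were above both inputs, by a narrow margin, as were 42.3% of tested features.

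No change among these 3 genes passed the test. The log2 change was 0.62 for Tet1 (SE 0.61, 95% interval -0.78 to 2.02, edgeR adjusted p = 0.438), 0.82 for Tet2 (SE 0.70, -0.81 to 2.45, adjusted p = 0.377) and 0.50 for Uhrf1 (SE 0.54, -0.76 to 1.75, adjusted p = 0.490). Of the 3, 0 were called by edgeR or DESeq2 and 0 had an unadjusted p under 0.05 in edgeR, against 51.9% of all 2081 features called (33% higher, 18.9% lower). Each interval includes 0, so neither a rise nor a fall was shown. Without replicate 1 of hm5C RIP, which leaves only replicate 2 in that group, the Tet1 change was 1.12. Tet3 and Ogt, which that fit also tested, were at 1.66 and 1.19, with a median of all features of 0.12. With Acsl6 left out and scaling by library size alone, all 3 genes passed the test, at 2.17, 2.34 and 1.97, but the median of all features was then 1.99. Without replicate 2, the changes were -0.77 for Tet1, -0.39 for Tet2 and -0.19 for Uhrf1.

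The other 7 genes were too scarce to test in RIP. Tet3 had 1 and 12 counts in hm5C RIP, against 6 and 7 in input, and Ogt 2 and 8, against 5 and 7. Dnmt1 had 2 and 1 counts in hm5C RIP, against 9 and 8 in input, and Dnmt3a 0 and 2, against 6 and 6. Dnmt3b had 0 and 0 counts in hm5C RIP, against 0 and 3 in input, Dnmt3l 0 and 0, against 3 and 3, and Tdg 0 and 0, against 1 and 5. Replicate 2 of hm5C RIP was the higher one for Tet3 and Ogt, and the 4 methyltransferase genes were low in both. Dnmt1, Dnmt3a, Dnmt3l and Tdg had both hm5C RIP libraries below both inputs in CPM, as did 35% of the tested features. That share is of features that passed the count filter, which these genes did not, so it is no like-for-like base.

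Summed over each family, the methyltransferase genes took 2 of 10 and 3 of 54 TET and DNMT counts in hm5C RIP, or 20.0% (exact binomial 95% interval 2.52% to 55.6%) and 5.56% (1.16% to 15.4%). In input they took 18 of 50 and 20 of 61, or 36.0% (22.9% to 50.8%) and 32.8% (21.3% to 46.0%). Replicate 2 of hm5C RIP lay below both inputs without overlap of the intervals, and replicate 1 overlapped them. The intervals cover counting error only, while RIP replicates differed by far more (chi-square divided by its degrees of freedom, 12.8 in hm5C RIP and 14.2 in input).

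**Figure D4:**
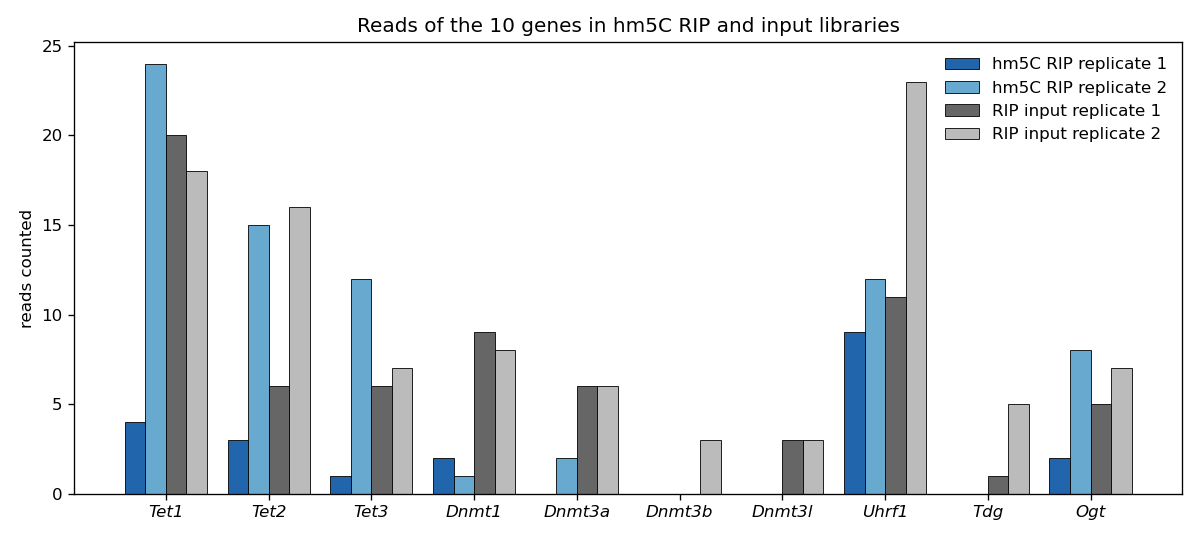
Raw counts of the 10 genes (x axis) in each hm5C RIP and RIP input library (1 bar per library, y axis in reads counted, linear from 0). No gene has over 24 counts in any library, and Dnmt3b, Dnmt3l and Tdg have 0 in both hm5C RIP libraries.

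Of the related genes, Usp7, the deubiquitinase that stabilises UHRF1 and DNMT1, fell in hm5C RIP to 0 and 1.24 CPM, from 3 counts, against 4.60 and 5.74 CPM in input (log2 change -2.74, edgeR adjusted p = 0.0268). It did not pass in DESeq2 (-2.84, adjusted p = 0.0928) or without replicate 1 of the RIP input (-3.24, edgeR adjusted p = 0.242). Without replicate 2 of hm5C RIP, which leaves a library at 0, the fitted Usp7 change was -7.18. Of 4 tested genes of the maintenance list, Usp7 was the only one called, while 51.9% of all features were called in hm5C RIP (33% higher, 18.9% lower). Only 2 of 8 fibroblast markers were tested. Col1a2 rose by 3.56 (log2, edgeR adjusted p = 0.000362), and the other changed by 0.15 and was not called. The 8 markers summed to 51.4 to 63.5 CPM in hm5C RIP, against 20.4 to 20.8 CPM in input, with Col1a1 at 0 in all RIP inputs. Pluripotency markers summed to 26.9 to 50.2 CPM in hm5C RIP, against 57.6 to 61.5 CPM in input. Of 9 tested pluripotency markers, edgeR called 2 lower, against 18.9% of all features. The part of these markers in the values of the 10 genes was not tested.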

How the data were processed

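The authors deposited raw read counts per feature, whole numbers with differing column sums, for CLIP and RIP. The build was mm10, and STAR 2.5.3a, Bowtie2 2.2.6, UMI-tools and cutadapt are the tools listed, per the submitters' processing notes. The counting tool, annotation and use of strand are not given in the sources used here. Genes were matched by Ensembl ID. The test was edgeR's robust quasi-likelihood F-test (version 4.0.16 under R 4.3.3) after filterByExpr and TMM scaling, with Benjamini-Hochberg adjustment over all tested features and a threshold of 0.05. The filter kept 10334 CLIP and 2081 RIP features. The 8 CLIP libraries were fitted together with contrasts for both clones, each clone, their difference and the inputs, and the 4 RIP libraries separately. All 10 genes are named, as are the 3 features most like Tet2, Tet3 and Uhrf1. Called genes of the related lists are named for some comparisons only, at most 4 per list. Called cell type markers in TET2 CLIP are not named. Over both clones edgeR called 2 of 15 pluripotency markers higher and 1 lower. Of 4 tested endoderm markers it called 1 higher and 2 lower, and of 2 fibroblast markers 1 lower. Among all features, 8.99% were called higher and 5.83% lower. The genes and lists were chosen with earlier results of these data known. Alternatives were DESeq2 1.42.0 (size factors, Wald test), library size alone, no count filter, the replicate number as a block, each clone alone, leaving out each library and RIP without Acsl6. The test was also run on simulated counts with 200 changed features, the outcome of which is not given here. The floor of a library is the CPM that 3 counts correspond to.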

Additional observations from a re-analysis of the deposited data

How the results depend on the processing

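Over 451 values of single genes among the 10 under other settings, 379 kept direction and side of the threshold, 27 came past it, 9 fell short of it and 36 changed sign, none of the last being a call. The cause was not tested. The 451 values hold the clone difference only for Tet3 and Dnmt3b, and the inputs only for Dnmt1 and Ogt. Outside them, further values of the clone difference and the inputs changed sign. With library size alone, Tet1 came past the threshold in both (-0.87 and 0.50). Over both clones, no count filter gave 0 genes higher and 3 lower (Tet1, Uhrf1 and Ogt). The median of all features was then -0.66, so that Tet1 lay 0.13 and Ogt 0.06 above it and Uhrf1 at -0.24 relative to it (-0.52 with the filter). In clone 65, library size alone gave 4 lower with an all-feature median of -0.45. No count filter gave 0 higher and 3 lower there with a median of -0.95, above which Tet1 lay by 0.16 and Ogt by 0.25. In clone 75, no count filter and the 4 libraries of that clone alone each gave 1 lower. For the clone difference library size alone gave 1 lower (all-feature median -0.60), and for the inputs 2 higher (median 0.34). In RIP, leaving out Acsl6 with library size alone gave 3 higher (median 1.99).

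Leaving out 1 library gave 0 to 1 higher and 1 to 3 lower over both clones, 0 to 1 higher and 0 to 1 lower in clone 65, 0 to 1 lower in clone 75, 0 to 1 higher and 0 to 1 lower in the inputs and 0 to 2 higher in RIP. Where an arm had 1 library left, it was taken to vary like the others. The extra calls over both clones were Tet1 without replicate 2 of TET2 CLIP of clone 65, and Ogt without either TET2 CLIP replicate of clone 65 or replicate 2 of clone 75. In these fits the median of all features was -0.23 to -0.11, against -0.03 with all libraries. Uhrf1 passed in clone 65 without either TET2 CLIP library of clone 75, and in clone 75 without either of clone 65.

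The samples share only a replicate number: deviations of same-numbered libraries correlated at -0.01 in clone 65, 0.02 in clone 75 and 0.02 in RIP. With the replicate block, Tet3 over both clones was 0.88 (edgeR adjusted p = 0.0208) and Uhrf1 -0.56 (adjusted p = 0.0298), and of the calls named, Sinhcaf in clone 75 alone was lost (1.20, adjusted p = 0.256). The inputs had no such fit.

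Under settings that kept all libraries, values that changed sign were as follows. Over both clones, Dnmt1 was -0.0098 with library size alone and -0.25 with no count filter, Dnmt3a -0.20 with no count filter and Tdg 0.0043 with the block. In clone 65, Tet2 was 0.014 with DESeq2 size factors and 0.013 in DESeq2, Dnmt3a 0.017 and 0.037 there and 0.0045 with the block, Dnmt1 -0.18 with library size alone and -0.24 with no count filter, and Tdg -0.028 with no count filter. In clone 75, library size alone gave 0.15 for Tet1, 0.17 for Tet2 and 0.16 for Dnmt1, the block 0.0026 for Dnmt1 and no count filter -0.039 for Dnmt3b. In RIP, Uhrf1 was -0.14 with no count filter. For the clone difference, Tet2 was 0.052 with DESeq2 size factors, 0.047 in DESeq2 and 0.0032 with the block. Uhrf1 was 0.046, 0.058 and 0.017 under the same settings. Dnmt1 was -0.33 with library size alone, and Ogt -0.54 with library size alone and -0.18 with no count filter. In the inputs, library size alone gave 0.16 for Tet3, 0.007 for Dnmt3a, 0.21 for Dnmt3b and 0.15 for Tdg.

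Leaving out 1 library gave, over both clones, -0.42 to 0.19 for Dnmt1, -0.42 to 0.27 for Dnmt3a and -0.53 to 0.055 for Tdg. In clone 65 it gave -0.69 to 0.52 for Dnmt1, -1.05 to 0.32 for Dnmt3a and -0.36 to 0.68 for Tdg, and in clone 75 -0.26 to 0.053 for Tet2, -0.28 to 0.15 for Dnmt1, -0.0044 to 0.63 for Dnmt3a and -0.21 to 0.61 for Dnmt3b. In RIP it gave -0.77 to 1.12 for Tet1, -0.39 to 1.24 for Tet2 and -0.19 to 0.62 for Uhrf1.

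Counts over all features also moved. Library size alone gave 922 lower over both clones (602 with TMM), 1326 lower in clone 65 (297), 264 lower in clone 75 (406), 104 higher and 638 lower for the clone difference (229 and 34) and 1559 higher and 242 lower in the inputs (196 and 517). No count filter gave 1871 lower over both clones, 1126 lower in clone 65, and 141 higher and 59 lower for the clone difference. DESeq2 gave 189 lower in clone 65, and 64 higher and 264 lower in the inputs. The block gave 382 higher and 264 lower in clone 75 (643 and 406) and 13 lower for the difference. RIP without Acsl6 and with library size alone gave 1686 higher and 88 lower (686 and 394). Leaving out 1 library gave 453 to 1081 lower over both clones, 558 to 985 higher and 178 to 617 lower in clone 65, 276 to 645 higher and 206 to 757 lower in clone 75, 83 to 271 higher and 4 to 101 lower for the difference, 10 to 426 higher and 128 to 693 lower in the inputs, and 336 to 745 higher and 301 to 640 lower in RIP. Depth limits Dnmt3a, Dnmt3b, Dnmt3l and Tdg in TET2 CLIP and all 10 genes in RIP.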
